A study of Mus musculus with 4 samples.

Results

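The imiquimod response of ear skin that lacked Traf6 in its epithelium was read as the log2 level of each gene on the array labelled Traf6EKO with imiquimod minus its log2 level on the array labelled Traf6EKO without it. All 19938 genes with a probe set of exactly 1 gene symbol were included, out of 35556 probe sets in all, and the comparison used 2 of the 4 arrays in the study. The study profiled RNA of whole ears of 8-week-old female mice, either Traf6f/f (a floxed Traf6 gene, called f/f here) or Traf6EKO (an epithelial knockout of Traf6, called EKO here for the arrays labelled so). Treated ears received 10 mg of an imiquimod cream each day for 2 days, and the remaining ears were left without imiquimod (IMQ). This gives 4 groups, EKO and f/f with IMQ and EKO and f/f untreated, each of 1 array. No difference below therefore has a replicate check, an error between animals or a p-value. The study's description gives n = 2. The sources used here do not say whether RNA of several mice was pooled on an array, which strain was used, which promoter drove the loss of Traf6, or whether untreated ears received a control cream. The study's title names keratinocytes as the cells without TRAF6, and the other cells of the ear were profiled with them.

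Imiquimod is an agonist of the endosomal RNA sensor TLR7, and repeated application to mouse skin provokes an inflammation with thickened epidermis and immune infiltrate that is used as a model of psoriasis. TRAF6 is a ubiquitin ligase and adaptor that relays signals of Toll-like, IL-1, IL-36 and IL-17 receptors, and NF-kB and MAP kinases are activated downstream. In psoriasis-like skin, keratinocytes are known to mature differently, divide, make wound keratins and release antimicrobial proteins and chemokines that call in neutrophils.

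The log2 level of Traf6 was 9.65 on the EKO untreated array and 9.35 on the EKO IMQ array, against 9.51 on f/f untreated and 9.30 on f/f IMQ. The EKO and f/f levels thus lay close together. Whole ear RNA includes cells other than keratinocytes, and the sources used here do not say which exons the probe set reads. This value therefore does not check the labels. Of 8 keratinocyte markers, 7 were measured and all 7 were above the floor on all 4 arrays. Muscle, fat, cartilage and fibroblast markers were also at or above the floor, 4 of 4, 3 of 4, 3 of 4 and 5 of 5 respectively on all arrays. Array medians lay between 6.52 and 6.57 (log2), and the EKO pair correlated at r = 0.994 across probe sets against 0.981 for the f/f pair. The number of arrays limits the precision.

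Counted genes had a difference of at least 1 in size (2-fold) and a level that reached the floor, the median level of all named genes on an array (6.96 on EKO untreated and 6.94 on EKO IMQ), on at least 1 EKO array. Of 10285 genes at the floor, 69 were counted as higher with IMQ (0.671%) and 10 as lower (0.0972%). Of the 69, 26 were below the floor on the untreated array and passed only through the IMQ array, so their folds rest on an untreated level near background. Likewise, 5 of the 10 were below the floor on the IMQ array and passed only through the untreated array. At 1.5-fold the counts were 274 higher (2.66%) and 83 lower (0.807%). Most genes hardly differed: 96.7% of all genes lay within 0.5 of 0 in EKO, with an SD of 0.223 across genes. The EKO difference was above 0 in 46.9% of all genes and below 0 in 52.8%, which stand beside each list's counts. Between probe sets of the same gene, which read the same 2 RNA samples, the EKO difference had a pooled SD of 0.108 over 999 genes, and this technical spread is the only error the arrays hold. Levels and differences below are log2 values. Where a pair of levels is given for a genotype, the untreated array comes first and the IMQ array after it.

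**Figure D1:**
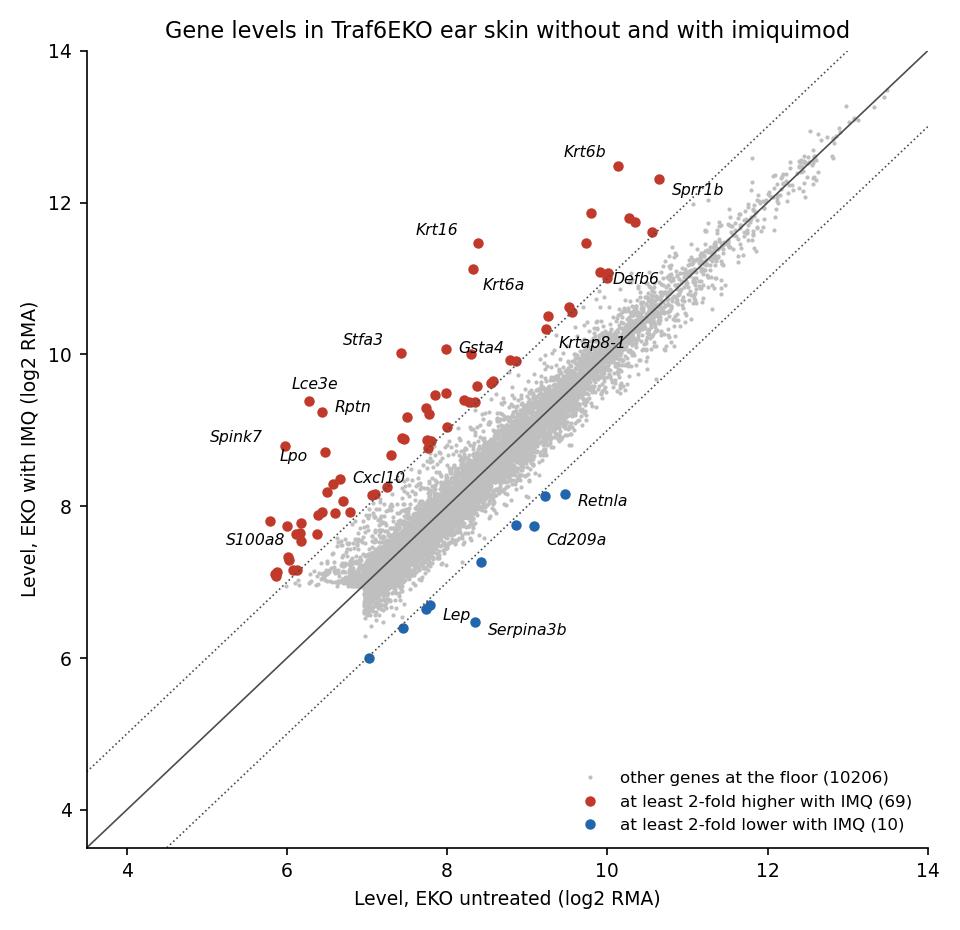
Each point is 1 gene, placed by its log2 level on the EKO untreated array (x axis) and the EKO IMQ array (y axis), with a solid line at equal levels and dotted lines at 2-fold. The 69 genes counted as higher with IMQ (red) lie above the upper dotted line, led by Lce3e and Krt16, and the 10 counted as lower (blue) lie below the lower line, led by Serpina3b.

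Promoters are shown for 5 genes that stand for the gene groups described below: the cornified envelope, mitosis (both Ccnb2 and Cenpa), the hair shaft and the interferon-inducible chemokines. Each run is the reference sequence of RefSeq (build GRCm38.p6), 250 bases before the gene's start and the first 30 bases after it, written 5′ to 3′ on the gene's strand. Capitals mark only the motifs searched for the gene's own group, on both strands, and other matches to the spellings below stay in lower case, such as an AP-1 match in Cxcl10 and a TTTGAA in Krtap8-1. The AP-1 site was spelled TGANTCA, the TATA box was spelled TATAAA, the core of the cell cycle homology region was spelled TTTGAA and the core of the interferon-stimulated response element was 2 copies of GAAA with any 2 bases between them. The CCAAT box is its own spelling, printed ATTGG where it lies on the opposite strand. The capitals in Sprr1b (chr3:92438750-92439029, minus strand) mark an AP-1 match beginning 111 bases before the start and a TATA box beginning 30 bases before it. In Ccnb2 (chr9:70421525-70421804, minus strand) they mark 3 CCAAT boxes and a pair of TTTGAA matches, and in Cenpa (chr5:30666636-30666915, plus strand) a pair of inverted CCAAT boxes and 1 TTTGAA. In Krtap8-1 (chr16:89487923-89488202, minus strand) they mark a TATA box, and in Cxcl10 (chr5:92348860-92349139, minus strand) an interferon-response match 213 bases before the start.
Sprr1b: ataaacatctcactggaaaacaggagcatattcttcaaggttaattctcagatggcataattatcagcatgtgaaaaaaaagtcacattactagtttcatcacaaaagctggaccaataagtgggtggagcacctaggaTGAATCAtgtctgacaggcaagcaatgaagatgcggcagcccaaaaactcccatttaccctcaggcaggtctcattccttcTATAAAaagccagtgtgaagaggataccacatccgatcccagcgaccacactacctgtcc
Ccnb2: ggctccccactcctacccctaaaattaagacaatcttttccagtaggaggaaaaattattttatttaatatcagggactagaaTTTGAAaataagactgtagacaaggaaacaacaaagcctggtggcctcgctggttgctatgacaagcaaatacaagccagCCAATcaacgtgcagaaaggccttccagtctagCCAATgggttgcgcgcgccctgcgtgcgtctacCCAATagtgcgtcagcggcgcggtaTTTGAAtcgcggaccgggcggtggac
Cenpa: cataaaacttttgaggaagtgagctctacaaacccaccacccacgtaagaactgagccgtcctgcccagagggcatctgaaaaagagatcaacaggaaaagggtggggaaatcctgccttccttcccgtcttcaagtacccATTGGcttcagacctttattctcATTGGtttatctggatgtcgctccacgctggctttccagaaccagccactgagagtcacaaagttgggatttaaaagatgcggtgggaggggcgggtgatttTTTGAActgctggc
Krtap8-1: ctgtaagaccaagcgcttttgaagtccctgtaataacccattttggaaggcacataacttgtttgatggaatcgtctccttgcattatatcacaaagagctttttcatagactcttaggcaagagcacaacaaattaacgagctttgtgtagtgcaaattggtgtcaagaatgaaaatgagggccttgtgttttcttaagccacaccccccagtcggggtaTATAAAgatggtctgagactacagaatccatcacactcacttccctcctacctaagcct
Cxcl10: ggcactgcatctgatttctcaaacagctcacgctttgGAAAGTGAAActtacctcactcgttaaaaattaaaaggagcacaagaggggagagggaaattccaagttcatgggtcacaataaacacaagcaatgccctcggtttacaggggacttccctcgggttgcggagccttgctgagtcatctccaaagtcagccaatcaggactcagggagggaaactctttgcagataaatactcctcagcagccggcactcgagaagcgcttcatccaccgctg

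Wound keratins gave some of the largest differences of the EKO response. Krt16 and Krt6a, partner keratins that epidermis makes after wounding and in psoriasis, were 8.50-fold and 7.02-fold higher with IMQ. The level of Krt16 was 8.38 on EKO untreated and 11.47 on EKO IMQ, beside 7.51 and 12.20 on the f/f arrays. Krt6a had 8.32 and 11.13 in EKO and 8.20 and 12.05 in f/f. In both genotypes each IMQ array was above both untreated arrays for these keratins. Krt6a and Krt6b are near-identical, so their probe sets may not be told apart. Krt6b was higher by 2.36 in EKO and Krt17 by 0.92, and the 4 genes of this list had a median difference of 2.58, beside 3.64 in f/f. All 4 were higher, where 46.9% of all genes were above 0. The keratins of unwounded epidermis differed little. Krt5 and Krt14 of the basal layer were higher by 0.15 and 0.26, Krt10 of the layers above by 0.04 and Krt1 by 0.41, and the median of 15 basal genes was -0.09. Krt15, a keratin of basal and bulge cells, had 10.80 and 10.16 in EKO, a difference of -0.63, beside -1.94 in f/f. Krt79, a keratin of the gland duct and infundibulum, was higher by 1.10 in EKO and by 1.06 in f/f.

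The late cornified envelope family divided by its clusters. LCE3 genes, whose human counterparts are induced in psoriasis plaques, were higher in all 5 measured members with a median of 1.60, led by Lce3e at 6.27 and 9.38, a difference of 3.11 from an untreated level below the floor. The LCE1 genes, which belong to normal maturation, had a median of 0.15 over 13 members, all above 0 and none over 0.50. Lce3e had 4.36 and 10.16 in f/f, so the untreated EKO array was above the untreated f/f array and the EKO IMQ array below the f/f IMQ array. Lce3a had 6.17 and 7.78 in EKO, Lce3c 10.27 and 11.80, and Lce3f 5.12 and 6.87, the last below the floor on both arrays.

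The small proline-rich proteins are cross-linked into the cornified envelope, and their genes sit in the same epidermal cluster as the LCE genes. All 13 measured were higher with IMQ in EKO, with a median of 1.08 beside 3.72 in f/f, though only 6 reached the floor and 4 were counted. Over all genes, 46.9% were above 0, and 0.671% of those at the floor were counted as higher. Sprr1b had 10.65 and 12.31 in EKO (3.17-fold higher) and 8.62 and 12.66 in f/f. The IMQ arrays of both genotypes lay close together for this gene, and the f/f difference of 4.04 came with a lower untreated level. Sprr2d (1.61), Sprr2e (1.69) and Sprr2h (1.72) formed a close group, and probes for these near-identical Sprr2 copies may read more than their own gene. In the promoters as tabulated by RefSeq, 300 bases long, TGANTCA was found in 9 of 11 Sprr genes (81.8%) against 7.93% of 27025 promoters, and TATAAA in 10 of 11 (90.9%) against 14.2%.

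Repetin (Rptn), a fused S100-type envelope protein, had 6.44, below the floor, and 9.24 in EKO, a difference of 2.80. Its relatives differed far less, Hrnr by 0.29 and Flg2 by -0.23, and Tchh, of the hair follicle, is described below. Protease inhibitors and proteases of the outer epidermis were the next group. Stfa3 and Stfa2, stefin A inhibitors of cysteine proteases, were higher by 2.59 and 2.02, and all 6 stefin A genes measured were above 0 with a median of 0.96, though Csta1 (0.06) and Csta2 (0.03) barely differed and these copies are alike in sequence. Spink7, a Kazal-type inhibitor of serine proteases, had 5.98, below the floor, and 8.79 in EKO and 5.09 and 8.33 in f/f, so it was higher on the EKO IMQ array than on the f/f IMQ array. The kallikrein serine proteases, which cut the junctions that hold surface cells together, included Klk6 (1.73), Klk13 (1.68), Klk10 (1.15) and Klk9 (1.05) among the counted genes. Klk8 and Klk11 were below 2-fold at 0.94 and 0.71, and Spink5, the main kallikrein inhibitor of skin, was at -0.11. The serpins held a pair of opposites: Serpinb6c was higher by 1.52 and Serpinb11 by 1.32, and Serpina3b had 8.35 and 6.47, the largest difference downward in EKO (3.67-fold lower). Serpinb6c and Serpinb11 were below the floor on EKO untreated, and Serpina3b was below it on EKO IMQ.

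Of the 7 gap junction genes measured, 4 reached the floor and 3 were counted as higher, beside 0.671% of all genes at the floor. Gjb2 and Gjb6 encode connexin 26 and connexin 30, which hyperproliferative epidermis is known to make, and had 8.29 and 10.00, and 6.39 and 7.88. Gjb6 was below the floor on EKO untreated and passed only through the IMQ array. Gja1, connexin 43, was just inside the limit at 1.00, with Gjb5 at 0.21. Desmosome genes stayed between -0.14 and 0.52 over 14 members. Among lipid genes of the barrier, 22 of 23 were above 0 with a median of 0.29, and Degs2, which makes phytoceramides, stood apart at 1.55. Fabp5, the epidermal fatty acid binding protein, was the only counted gene with more than 1 probe set. Its 2 probe sets gave 1.40 and 1.45. Aqp3, the glycerol channel of basal keratinocytes, was higher by 1.06. Epgn, a ligand of the EGF receptor, had 7.30 and 8.67 in EKO and 6.67 and 10.65 in f/f. The other ligands differed less in EKO, Hbegf by 0.70, Ereg by 0.21, Tgfa by 0.17 and Btc by -0.18.

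Defence genes were the other large group among those counted as higher. Of 24 antimicrobial and secreted defence genes, 19 were higher in EKO, 7 of them counted, with a median of 0.63 beside 1.32 in f/f. Of all genes at the floor, 0.671% were counted as higher. Lpo, Saa3, Defb3, S100a8 and S100a9 were below the floor on EKO untreated and passed only through the IMQ array. Lpo, lactoperoxidase, had 6.48 and 8.71, and Saa3, a local acute-phase protein, had 7.74 with IMQ, a difference of 1.74. S100a8 and S100a9, the calprotectin subunits of keratinocytes and neutrophils, had 6.18 and 7.54, and 6.70 and 8.07. These EKO IMQ levels were far below the f/f IMQ levels of 11.18 and 11.47, while the untreated levels were nearly equal between genotypes, 6.17 and 6.73 in f/f. The beta-defensin Defb3 showed the same picture, with 6.17 and 7.64 in EKO and 6.32 and 11.84 in f/f. Defb6, another beta-defensin, instead had 9.91 and 11.09 in EKO and 10.46 and 11.81 in f/f, a difference of 1.17 beside 1.34. Rnase2a, a ribonuclease of eosinophils, was the lowest of the list at -1.54, with levels below the floor on both EKO arrays (6.14 and 4.60). Lyz1, a lysozyme gene, was just outside the limit at -0.93, where Ppil6 (-1.03) was just inside it. Redox genes in the same tissue were led by Gsta4, a glutathione transferase for products of lipid peroxidation (7.98 and 10.07), and Slc7a11, the cystine importer (6.43 and 7.92), while 24 genes linked to the antioxidant factor NRF2 had a median of 0.13.

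Of the 10 IL-1 and IL-36 family cytokines and antagonists, whose receptors are known to use TRAF6, 9 were higher in EKO and none reached 2-fold. Their median was 0.33, beside 1.25 in f/f, where 7 reached 2-fold (3.82% of genes at the floor did so in f/f). Il1b had 5.77 and 6.58 in EKO, below the floor on both arrays, and 5.54 and 9.41 in f/f. Il36a (listed under its older symbol Il1f6) had 9.60 and 10.36 in EKO and 8.70 and 11.35 in f/f, Il36b (Il1f8) differed by 0.66 in EKO and Il36g (Il1f9) by 0.31. Il1a was higher by 0.31 in EKO and 2.04 in f/f, and Il33 by 0.14 and 1.62. Il1f10, an IL-1 family member known as IL-38, was lower in both, at -0.60 and -0.62.

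IL-17 and IL-23 genes were close to 0 in EKO. Il17a had 5.62 and 5.61 and Il17f 6.11 and 6.08, all below the floor, and Il23a differed by 0.05 and Il12b by -0.12. On the f/f arrays the same 4 genes differed by 0.31, 0.53, 0.82 and 0.54. Ccl20, the keratinocyte chemokine for IL-17-producing T cells, had 6.63 and 7.58 in EKO and 6.81 and 10.00 in f/f. Over 26 epithelial genes known to respond to IL-17 EKO gave a median of 0.39 beside 1.26 for f/f. The 5 counted members were Lpo, Saa3, Defb3, S100a8 and S100a9. All 5 were below the floor on EKO untreated and passed only through the IMQ array. Of all genes at the floor, 0.671% were counted as higher and 2.66% were higher at 1.5-fold. Of the list, 20 of the 26 were above 0 and 9 reached 1.5-fold, with Defb4 at 0.90 and Lcn2 at 0.75, and Il24 was the lowest at -0.25. Neutrophil chemokines were low throughout, with 1 of 9 at the floor in EKO. Cxcl2 differed by 0.39 beside 3.15 in f/f, and Ccl3 by 0.84 beside 2.81.

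Members of the lists for the TRAF6 pathway and its immediate targets lay on both sides of 0 in EKO. Receptors of the TLR, IL-1 and IL-17 families had a median of 0.04 over 22 genes, and the adaptors, ligases and kinases around TRAF6 -0.04 over 29, with none at 1.5-fold. Tlr7, the receptor for imiquimod, differed by -0.10, Myd88 by 0.27 and Irak3, an inhibitory kinase homologue, by 0.29. The 23 NF-kB subunits and feedback genes had a median of 0.01 in EKO and 0.36 in f/f. Nfkbia, the gene for IkB alpha and a feedback target of NF-kB, had 10.18 and 9.86 in EKO and 10.09 and 10.45 in f/f. Tnfaip3, for the inhibitor A20, likewise was lower in EKO (-0.31) and higher in f/f (0.53). Bcl3, an atypical IkB protein, was the exception at 1.5-fold, with 7.44 and 8.23. Immediate-early genes were also divided in EKO: Fosl1 was at 0.53, Ier3 at 0.43 and Junb at 0.24, whereas Fosb was at -0.63, Atf3 at -0.53, Nr4a1 at -0.43 and Fos at -0.31. Their median over 19 genes was 0.02, beside 0.47 in f/f. Fosb, Atf3, Nr4a1 and Fos were each highest on EKO untreated among all arrays. Fosb had 8.86 there beside 7.82 on f/f untreated, and Fos 7.79 beside 6.99. On EKO IMQ, Fosb (8.23) and Fos (7.48) were still above f/f untreated. The part of the high untreated levels in these lower values was not tested. Of the prostaglandin and leukotriene genes, Pla2g4e, a cytosolic phospholipase, was counted at 1.51, and Ptgs2, the inducible cyclooxygenase, differed by 0.49 in EKO and 3.23 in f/f. Timp1, an inhibitor of matrix metalloproteinases, and the matrix protein tenascin-C (Tnc) differed by 0.71 each in EKO, and by 2.46 and 1.78 in f/f. STAT3-linked genes gave -0.04 over 14 genes, with Socs3, a feedback inhibitor, at -0.04 in EKO and 1.02 in f/f.

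**Figure D2:**
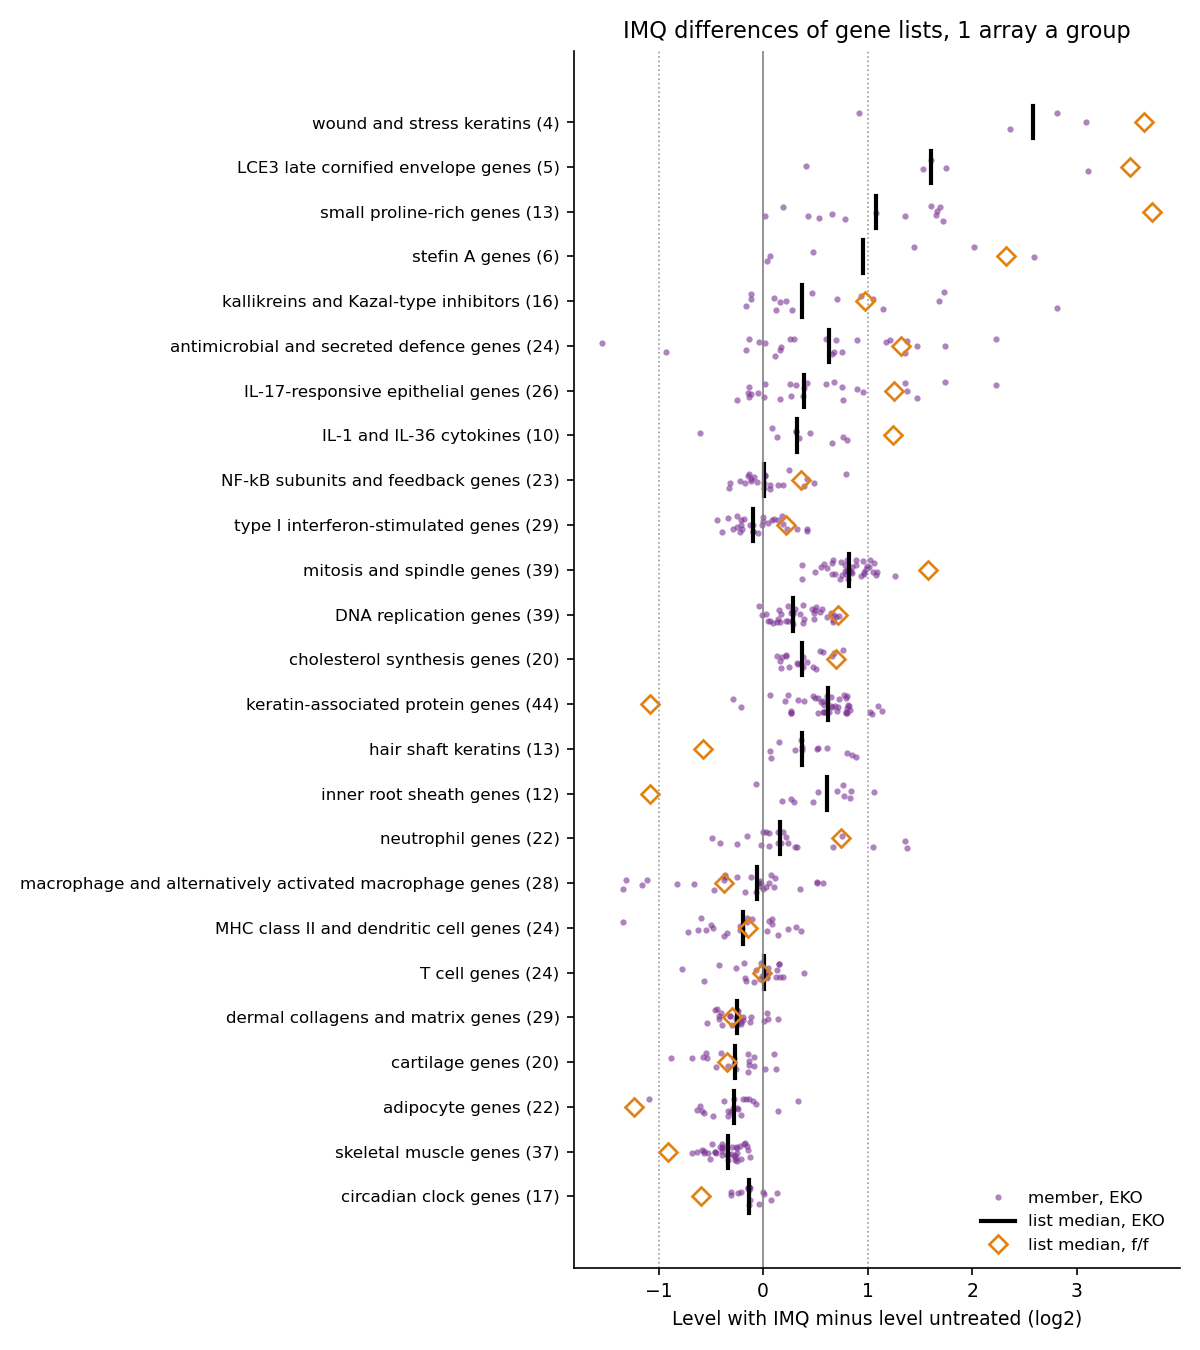
Log2 difference with IMQ (x axis) for 25 gene lists, with the number of measured members in brackets: purple points are members in EKO, black bars the list medians in EKO and open diamonds the list medians in f/f, each from 1 array a group. The wound keratins, LCE3 and mitosis lists lie to the right of 0 in EKO and further right in f/f, the NF-kB list straddles 0 in EKO, and the diamonds of the 3 hair lists lie left of 0 where the EKO bars lie right.

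Cxcl10, a chemokine that interferons induce and that draws CXCR3-bearing T cells, was counted as higher in EKO and was apart from the genes around it. Its level was 6.66 on EKO untreated and 8.36 on EKO IMQ, a difference of 1.70 from a level below the floor, and 7.83 and 7.72 on the f/f arrays. The EKO untreated array was thus the lowest of the 4, and the EKO IMQ array the highest. Cxcl9, another CXCR3 ligand, had 7.21 and 7.79 in EKO and 8.69 and 8.59 in f/f, and Cxcl11 was below the floor with a difference of 0.04. The 16 interferon-gamma genes around them had a median of 0.01, and 29 type I interferon-stimulated genes a median of -0.09, with 19 of 29 below 0, where 52.8% of all genes were below 0. Rsad2 and Oasl1 were the highest at 0.42 each, Mx1 was at 0.33, and Usp18 (-0.25), Oasl2 (-0.34), Rtp4 (-0.39) and Xaf1 (-0.44) were lower. In f/f the type I list had a median of 0.22. The interferon-response letters marked in the Cxcl10 promoter occurred in 3 of 60 promoters of genes counted as higher (5%) and in 3.49% of all.

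Mitotic genes were higher as a whole list. All 39 measured mitosis and spindle genes were above 0 in EKO, from 0.37 (Kif4) to 1.26 (Kif2c), with a median of 0.82 beside 1.58 in f/f. Of all genes, 46.9% were above 0. Of the 39, 29 reached the floor and 27 of these were higher at 1.5-fold, beside 2.66% of all genes at the floor. Some of them, such as Kif2c and Bub1, were below the floor on EKO untreated and passed only through the IMQ array. Ccnb2, a mitotic cyclin, had 8.86 and 9.91 in EKO and 8.04 and 10.12 in f/f. Ccna2 had 8.35 and 9.37, the mitotic kinase Plk1 7.78 and 8.86, and the checkpoint kinase Bub1 6.07 and 7.17 in EKO. For all of these, the EKO untreated level lay above that of f/f untreated and the EKO IMQ level below that of f/f IMQ. Cenpa, the centromeric histone H3, was just inside 2-fold at 1.01, and Kif11 (1.00, rounded up from just under the limit), Mki67 (0.99) and Top2a (0.96) were just outside. DNA replication genes showed smaller differences, with 37 of 39 above 0, a median of 0.29 and none at 2-fold. Mcm5 of the replicative helicase was the highest at 0.72, followed by the ribonucleotide reductase subunit Rrm2 at 0.69. TTTGAA was present in 24 of 32 mitotic promoters (75%), in 4 of 33 replication promoters (12.1%) and in 18.1% of all, and was also present in 8 of 9 hair shaft keratin promoters (88.9%) and 12 of 40 of the keratin-associated proteins (30%). CCAAT was present in 71.9% of mitotic, 60.6% of replication and 37.9% of all promoters.

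Genes of growth and metabolism followed with smaller differences. Ribosome biogenesis genes were higher in 32 of 34 members with a median of 0.19, and proteasome subunits in 27 of 31 with a median of 0.17. All 20 cholesterol synthesis genes were above 0, with a median of 0.37, led by Hsd17b7 (0.76) and Sqle, the squalene epoxidase (0.68). CCAAT was in 15 of 16 of their promoters (93.8%). Among glycolysis and hypoxia genes, Pgk1 (0.61), Pgam1 (0.60) and Slc2a1, the glucose carrier GLUT1 (0.57), were higher, and Bnip3 was at -0.38. Subunits of oxidative phosphorylation centred near 0, at 0.04 over 36 genes. Of the sebaceous gland and fatty acid genes, Elovl3 was counted at 1.07 and Dgat2l6 was at 0.96, while Scd1 was at -0.22 and Pparg at -0.41.

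Hair shaft and root sheath genes were higher with IMQ in EKO and lower in f/f. Keratin-associated proteins, which bind the keratin filaments of the hair shaft, were above 0 in 42 of 44 members with a median of 0.62. Of all genes, 46.9% were above 0 in EKO. Of the 44, 34 reached the floor and 22 of these were higher at 1.5-fold, beside 2.66% of all genes at the floor. Some of the 22, such as Krtap6-1, Krtap21-1 and Krtap24-1, were below the floor on EKO untreated and passed only through the IMQ array. In f/f all 44 were below 0, with a median of -1.08, where 48.8% of all genes were above 0. The median level of the 44 genes was 7.20 on EKO untreated, 7.90 on EKO IMQ, 7.72 on f/f untreated and 6.56 on f/f IMQ. The highest and the lowest of these 4 medians were thus both on IMQ arrays, and the untreated medians differed by less than the medians of either IMQ pair. Gene by gene this did not hold for most members in EKO. Krtap6-3 had 7.65 on f/f untreated and 5.64 on EKO untreated, beside an EKO difference of 0.71. Krtap4-16 had 9.39 and 7.79 on these untreated arrays, beside 0.79. Krtap8-1 had 9.23 and 10.33 in EKO and 10.12 and 8.13 in f/f. Krtap19-1 had 8.00 and 9.04 in EKO and 7.79 and 6.62 in f/f. Krtap21-1 (1.14) and Krtap24-1 (1.02) were counted as well, and Krtap3-2 (-0.28) and Krtap31-1 (-0.21) were the 2 members below 0. These genes are clustered and alike, so cross-reading between them is possible, and the 44 values are not independent.

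Other products of the growing follicle were higher too. All 13 hair shaft keratins were above 0 in EKO with a median of 0.37, led by Krt33a (0.89), Krt86 (0.86) and Krt31 (0.81), and 12 of the 13 were below 0 in f/f. Of 12 inner root sheath genes, 11 were above 0 with a median of 0.61, where 46.9% of all genes were above 0. In f/f 11 were below 0 with a median of -1.08, where 48.8% of all genes were above 0. The median level of the 12 was 7.03 and 7.55 in EKO and 7.51 and 6.87 in f/f. The EKO IMQ median thus lay close to that of f/f untreated. Krt27 had 8.73 on f/f untreated and 7.85 on EKO untreated, beside an EKO difference of 0.83. Tchh, trichohyalin, which hardens the inner root sheath, had 7.80 and 8.86 in EKO and 8.78 and 7.48 in f/f, and the root sheath keratin Krt71 had 8.88 and 9.72, and 9.68 and 8.46. Of 18 hair matrix and shaft regulators, 13 were above 0, with a median of 0.14 beside -0.04 in f/f. S100a3 was the highest at 0.64 (-0.70 in f/f), followed by Psors1c2 at 0.57 (1.55 in f/f), and Bmp4 (-0.40) and Msx1 (-0.41) were the lowest. Bulge stem cell genes were below 0 in 8 of 11, with a median of -0.17. The summed level of the 4 hair follicle markers measured was 30.7 and 32.8 in EKO and 32.3 and 29.5 in f/f. In RNA of whole tissue, more cells of a type and more RNA per cell cannot be told apart, here and in each list below. TATAAA was present in 32 of 40 keratin-associated protein promoters (80%) against 14.2% of all.

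**Figure D3:**
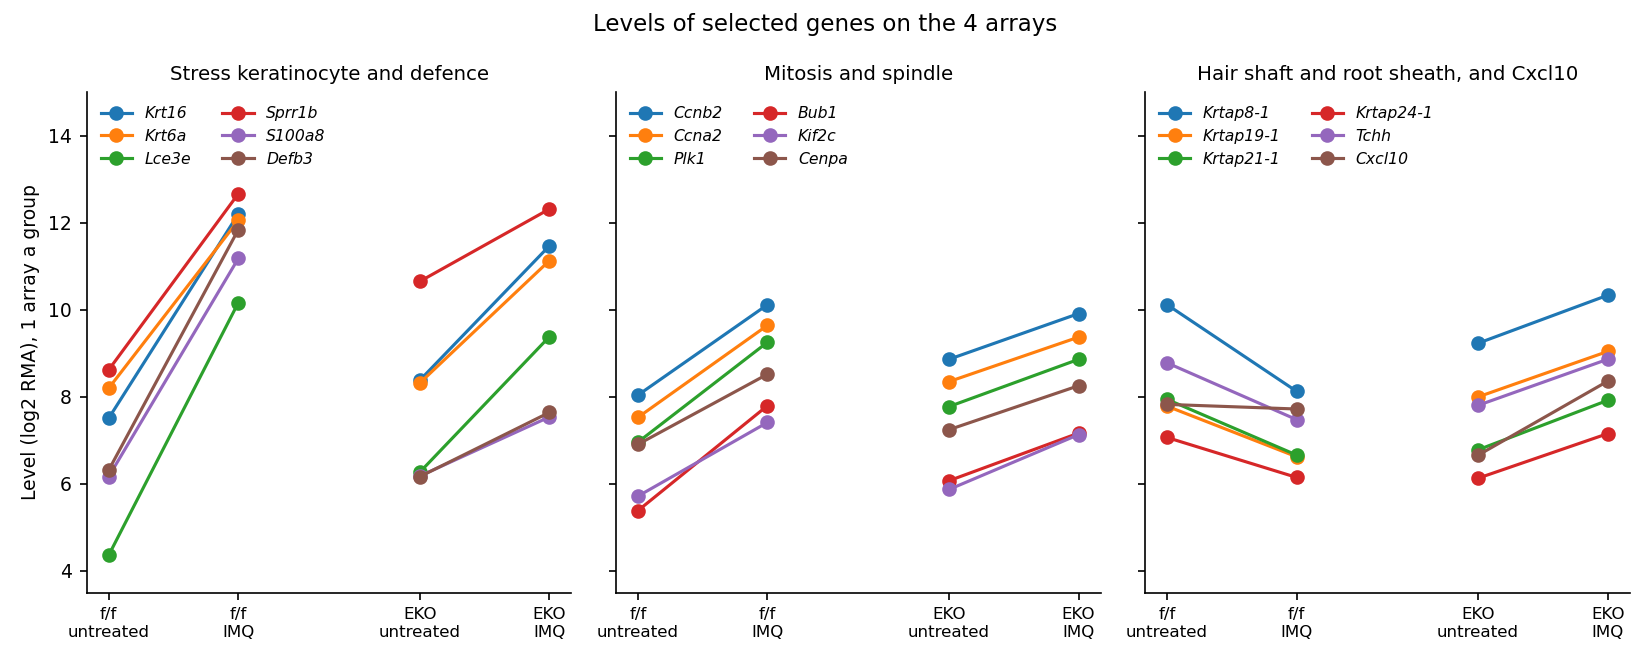
Log2 levels (y axis) of 18 genes on the 4 arrays, 1 array a group, with a line joining the untreated and IMQ arrays of each genotype. Krt16 and the mitotic genes slope upward in both genotypes, with S100a8 and Defb3 ending lower in EKO, whereas the Krtap genes and Tchh slope upward in EKO and downward in f/f and Cxcl10 slopes upward in EKO.

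Markers of immune cells gave a mixed picture. Of 22 neutrophil genes, 17 were above 0 with a median of 0.16 in EKO and 0.75 in f/f, but only 8 reached the floor in EKO. The counted members were S100a9, S100a8 and Cxcr2, the receptor for neutrophil chemokines (7.11 and 8.16). Of the 8 neutrophil markers, 4 were below the floor on all 4 arrays, among them Ly6g (-0.15 in EKO), Mpo (0.06) and Elane (-0.02). The sum of the log2 levels of the 8 was 46.4 and 50.4 in EKO and 45.7 and 61.1 in f/f. Most of the EKO difference in this sum came from S100a9 (1.37), S100a8 (1.36) and Cxcr2 (1.05), with Csf3r next at 0.22. The part of neutrophils in the S100a8 and S100a9 differences was not tested. Inflammatory monocyte genes were above 0 in 12 of 14, with a median of 0.32. Plac8 had 6.03 and 7.29 in EKO and 6.47 and 7.75 in f/f, Itgam, the integrin CD11b, was higher by 0.94, and the Fc receptor Fcgr4 by 0.75. Ifitm6 (-0.76) and Thbs1 (-0.44) were the 2 members below 0, and Ccr2 (0.07) and Cd14 (0.02) barely differed.

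The genes counted as lower included a group that alternatively activated dermal macrophages and dendritic cells are known to make. Retnla, the secreted protein RELM-alpha, had 9.47 and 8.16 in EKO and 9.98 and 6.85 in f/f. Cd209a, a C-type lectin of dendritic cells, had 9.08 and 7.74, Mgl2, a galactose lectin, 8.42 and 7.26, and Cd209d 8.85 and 7.75 in EKO. For all 4 the IMQ array was below the untreated array in both genotypes, and the f/f differences were the larger ones (-3.13, -2.42, -1.94 and -1.97). Of 28 macrophage genes, 19 were below 0, where 52.8% of all genes were below 0, and the median was -0.06. The 4 counted as lower stand beside 0.0972% of all genes at the floor. Clec10a, a further galactose lectin, was at -0.83 and Ccl24 at -0.66, both below the floor on the EKO arrays, and Cd163 at -0.36, whereas Adgre1, the F4/80 antigen, was at 0.51 and Cd68 at 0.12. In all, 9 of the 28 were above 0. Unlike Cd209a and Cd209d, their relatives Cd209f (0.57, the highest of the list) and Cd209g (0.36) were higher in EKO. Chil3 was at 0.52, below the floor on both EKO arrays. Members of the MHC class II and dendritic cell list lay on both sides of 0, 16 below and 8 above, around a middle value of -0.19. Among MHC class II genes, H2-Ab1 was at -0.72, H2-Aa at -0.62, H2-Eb1 at -0.60 and Cd74 at -0.55, with Cd207 of Langerhans cells at -0.38. Ccr7 (0.37) and Ccl22 (0.32) were the highest of this list, both below the floor on EKO untreated. Cd3g, a T cell receptor chain, was at -0.77 and Cd3e at -0.17, while the T cell list had a median of 0.01 and 3 of 5 T cell markers were below the floor on all arrays. Cd33, a myeloid lectin of the Siglec family, was just outside the limit at -0.92, beside -0.09 in f/f. Mast cell genes were below 0 in 11 of 13, by little, with a median of -0.17.

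Genes of the tissue under the epidermis were lower with IMQ by small amounts in nearly every member, where 52.8% of all genes were below 0. All 37 skeletal muscle genes were below 0, between -0.68 (Tnnt1) and -0.12 (Tnni1), with a median of -0.33 in EKO and -0.91 in f/f. Adipocyte genes were below 0 in 20 of 22, with a median of -0.28 beside -1.24 in f/f. Lep, leptin, was the member counted, with 7.79 and, below the floor, 6.69, and Adipoq, adiponectin, had 10.12 and 9.52. Cartilage genes were below 0 in 17 of 20, with Cnmd, chondromodulin, at -0.88 and Acan, aggrecan, at -0.58. Collagens and other dermal matrix genes were below 0 in 25 of 29, with a median of -0.24 in EKO and -0.30 in f/f. The summed level of the marker genes on EKO untreated and EKO IMQ was 44.2 and 43.2 for muscle, 38.0 and 35.4 for fat and 52.0 and 50.8 for fibroblasts, and it was 84.2 and 84.8 for keratinocytes. The part of the tissue's make-up in the other differences was not tested.

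Glucocorticoid-responsive genes were below 0 in 13 of 14, with a median of -0.23, where 52.8% of all genes were below 0. Zbtb16 had 10.83 and 10.11, Tsc22d3, the glucocorticoid-induced leucine zipper, 10.17 and 9.62, and Fkbp5, a chaperone of the receptor, 8.84 and 8.43, and Lcn2 was the member above 0 (0.75). Circadian clock genes were closer to 0 in EKO, with a median of -0.13 over 17 genes against -0.60 in f/f. Dbp, an output gene, differed by -0.15 beside -0.95, and Per3 by -0.13 beside -1.02. The sources used here do not give the hour at which ears were taken.

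The EKO and f/f comparisons share no array, so their values may be set side by side, though the difference between them was not tested. Of the 69 genes counted as higher in EKO, 62 also passed 2-fold upward in f/f, 60 were higher there by more, and the medians were 1.36 in EKO and 2.43 in f/f. In f/f 3.82% of genes at the floor were higher by 2-fold or more. All 10 genes counted as lower were 2-fold lower in f/f, each by more than in EKO, where their median was -1.10. In f/f 2.63% of genes at the floor were lower by 2-fold or more. The 9 counted genes that were not higher by more in f/f were Cxcl10, the 4 Krtap genes, Tchh, Krt79, Nmu and Pinlyp. Nmu, the neuropeptide neuromedin U, had 6.60 and 7.91 in EKO and 5.92 and 6.97 in f/f. Pinlyp, an inhibitor of phospholipase A2, had 7.74 and 8.88 in EKO and 8.31 and 9.10 in f/f. Across all genes the f/f difference had an SD of 0.445, beside 0.223 in EKO.

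**Figure D4:**
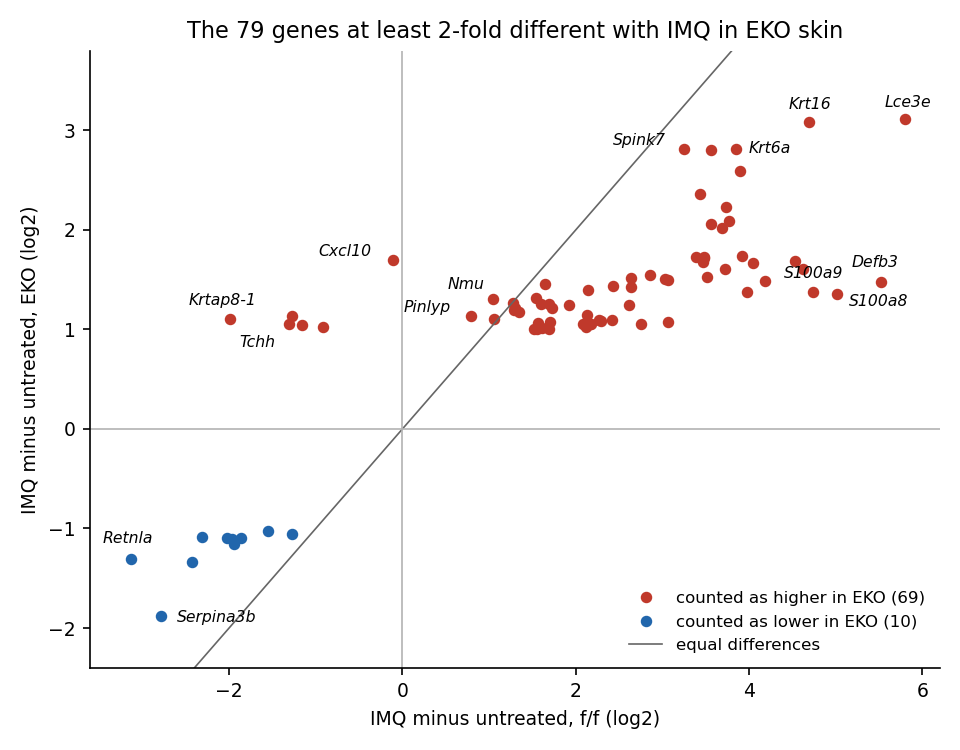
The 79 genes counted in EKO, placed by their log2 difference with IMQ in f/f (x axis) and in EKO (y axis), with a line at equal differences. Among the genes counted as higher (red), those right of the line, such as Defb3 and S100a8, differed more in f/f, and Cxcl10, Tchh and Krtap8-1 lie left of 0. The 10 counted as lower (blue) lie left of the line.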

How the data were processed

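Whole ear RNA was read on Affymetrix Mouse Gene 1.0 ST arrays, and sample titles gave the 4 groups of 1 array. The authors deposited log2 levels per probe set, which RMA made by background correction, quantile normalization and summarisation of probes, per the submitters' processing notes. Its version was not given in the sources used here. RMA gives all arrays 1 distribution, which would hide a shift shared by most genes, and it compresses low signals. Probe sets were named from the platform annotation: 21789 had 1 gene symbol and were used, 1621 had several and 12146 had no listed gene. By Entrez identifier 21698 were found in RefSeq, where 0 symbols differed. A gene with several probe sets was read from that whose 4-array mean was highest. Probe sets are compared between arrays, never with each other.

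Differences, the floor and the 2-fold rule are as described above, with no test. The genes named are Traf6, the 25 largest in each direction among those counted (leaving out unnamed gene models, small RNAs, antigen receptor segments and the olfactory and vomeronasal receptors), up to 8 leading members and the extremes of each of 62 gene lists, all members of lists of 14 or fewer, counted genes whose f/f difference was smaller or of the other sign, and the 10 leading Krtap genes. Values just inside and outside the limit are also named. Members, lists and rules were chosen with earlier results of these data known. A list's counts include members under the floor, and lists share members. Motifs were searched in the first RefSeq promoter listed for a gene, 250 bases before to 50 after its start. The computation was tested on simulated data. Alternatives were other scalings, floors, thresholds, probe set rules and list statistics. Python 3.11.15, numpy 2.4.6, pandas 2.3.3, scipy 1.17.1, matplotlib 3.10.9, R 4.3.3 and limma 3.58.1 were used.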

Additional observations from a re-analysis of the deposited data

Results flagged for a closer look

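Several genes counted as higher with IMQ in EKO had a difference of the other sign in f/f, on 1 array a group, and the difference between genotypes was not tested. They were Cxcl10 (1.70 in EKO, -0.11 in f/f), Krtap21-1 (1.14, -1.28), Krtap8-1 (1.10, -1.99), Tchh (1.06, -1.30), Krtap19-1 (1.04, -1.16) and Krtap24-1 (1.02, -0.92). List medians opposed each other in the same way for the keratin-associated protein genes (0.62 in EKO, -1.08 in f/f), the inner root sheath genes (0.61, -1.08), the filaggrin-type fused genes (0.40, -0.84) and the hair shaft keratins (0.37, -0.57). For these lists the untreated arrays differed as well. Their median level on EKO untreated and f/f untreated was 7.20 and 7.72 for the keratin-associated protein genes and 7.03 and 7.51 for the inner root sheath genes. It was 7.52 and 8.35 for the filaggrin-type genes and 6.73 and 6.98 for the hair shaft keratins. The filaggrin-type and inner root sheath lists share Tchh.

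Probe sets left out for want of a gene name also held signal. Of 1621 probe sets with several gene symbols, 764 reached the floor and 7 of them were at least 2-fold higher with IMQ in EKO, with 0 lower. Of 12146 with no listed gene, 3692 reached it, 11 were at least 2-fold higher and 2 lower.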

How the results depend on the processing

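The counts of 69 genes higher and 10 lower lay between 67 and 80, and between 9 and 11, under median scaling, repeated quantile normalization, cyclic loess, probe set means per gene, each probe set on its own (chosen after seeing the data) and no floor. With the floor required on both EKO arrays they were 43 and 5, since genes low on 1 array were left out, and at 1.5-fold they were 274 and 83. All 79 counted genes kept their sign in all 3 scalings, which moved the median of all genes from -0.01 to between -0.01 and 0.00. Differences of at least 1 in size could hardly change sign under such small shifts. Of the 79, 76 stayed counted with repeated quantile normalization, 76 with cyclic loess and 79 with median scaling. Of 559 named genes, 2 moved by more than the technical spread of 0.108 under any of these settings, Fbl to 0.26 and Ighm to -0.04 with the mean of probe sets. No list median moved by more than that spread with another scaling or probe set rule. Lists with medians close to 0 changed sign under at least 1 setting: serpin B genes (0.04 to -0.01, repeated quantile normalization), CC chemokines (-0.01 to 0.01, cyclic loess), complement genes (-0.02 to 0.02, mean of members), AP-1 genes (0.02 to -0.02, mean of members), fatty acid and sebaceous, B cell, T cell and CXCR3 genes (members at the floor). With the mean of members in place of the median, 10 lists moved: wound keratins 2.29, stefin A 1.10, filaggrin-type 0.79, kallikreins 0.69, connexins 0.59, IL-17-responsive genes 0.55, EGF ligands and receptors 0.24, CXCR3 ligands and interferon-gamma genes 0.16, suprabasal keratins 0.15 and macrophage genes -0.23. With only the members at the floor, 16 moved: small proline-rich genes 1.64, stefin A 1.25, connexins 1.25, kallikreins 0.99, neutrophil chemokines 0.84, IL-17-responsive genes 0.77, antimicrobial genes 0.75, inner root sheath 0.74, monocyte genes 0.66, hair shaft keratins 0.57, IL-17 and IL-23 genes 0.56, neutrophil genes 0.49, hair matrix 0.27, T cell genes -0.21, bulge genes -0.28 and MHC class II and dendritic genes -0.49. Here a member needed to reach the floor on either EKO array. Members low on the untreated array could thus enter through the IMQ array alone, which favours those that were higher with IMQ. Only 1 neutrophil chemokine and 2 IL-17 and IL-23 genes were at the floor. The cause of these moves was not tested. No paired analysis was possible because each group holds 1 array and the labels give no replicate numbers, and for the same reason no array could be left out. Of the 69 genes counted as higher, 26 were below the floor on the untreated array, where signal over background limits the fold.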

Other observations

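Some genes counted as higher in EKO belong to none of the groups described above, and they were chosen here after their values were seen. Gsdmc, a gasdermin of epithelium, differed by 1.44, and Dio2, the deiodinase that activates thyroid hormone, by 1.25. Smox, the spermine oxidase, had 8.27 and 9.37 in EKO (untreated, then IMQ) and 7.99 and 10.27 in f/f. Among those counted as lower, Scgb1a1, a secretoglobin, had 7.73 and 6.65 in EKO and 7.63 and 5.32 in f/f, and was below the floor on EKO IMQ. The lipid transporter Abca5 had 9.22 and 8.13 in EKO, and 9.55 and 7.69 in f/f.

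Other tissue compartments were near 0 in EKO. The median difference was -0.09 over 23 endothelial genes, -0.11 over 12 Schwann cell genes, 0.09 over 12 melanocyte genes and -0.02 over 16 complement genes. Of 19 cytochrome P450 and related xenobiotic genes, 15 were below 0 with a median of -0.18, where 52.8% of all genes were below 0. Cyp2e1 differed by -0.51 in EKO and -2.68 in f/f, and Cyp7b1, an oxysterol hydroxylase, by 0.35 and 1.97.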
